A study of Mus musculus with 6 samples.

Results

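Described here are 44 genes that mark cells other than endothelial cells (ECs): 14 epithelial, 14 fibroblast and mural, 5 mesothelial, 7 platelet and 4 erythroid genes. They were measured in ECs sorted from the lungs of mice carrying breast cancer metastases. Each gene was read from the brightest probe set, by mean over the 6 arrays, that the platform annotation assigns to that symbol alone, and 43 of the 44 had one, among 18193 such genes. For Lamp3 the annotation gives only a probe set shared with Ppid, so Lamp3 is named but not counted. The 6 arrays came from immunodeficient NSG mice, 6 to 8 weeks old and female per the methods, that received MDA-LM2, a lung-seeking line of human breast cancer cells, through the tail vein. Mice of both groups thus carried growing lung metastases. They were given liposomes loaded with PBS (3 arrays, PBS-liposome) or with clodronate, a drug that kills the phagocytes that ingest it (3 arrays, clodronate-liposome). Per the methods the liposomes were injected on days 14, 16 and 18 and the lungs taken on day 20, while the labels give 3 weeks. Red cells were lysed, and cells were sorted as CD31+ and negative for CD45, CD11b, EpCAM, CD140a, CD140b and the GFP of the cancer cells. The labels call the arrays biological replicates and do not say how many mice each held. NSG mice lack mature lymphocytes, so both groups describe a host without adaptive immunity.

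These genes are the usual signposts of a lung cell that is not endothelial. Epithelial cells line the alveoli and airways and make keratins, cadherin and surfactant, fibroblasts lay down collagen, and smooth muscle cells and pericytes wrap vessels with contractile fibres. Mesothelial cells cover the lung surface and make mesothelin and uroplakins. Platelets and red cells circulate inside the vessels, hold no nucleus, and carry RNA left from their precursors. Each of these neighbours touches or lies close to the endothelium, and platelets carry CD31 themselves, so their genes are commonly read to see what a CD31+ sort holds.

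The signal of each gene was set beside a reference for background. The reference for background was, on each array, the 95th percentile of the 44 probe sets annotated to 1 olfactory receptor gene, which lay between 7.35 and 7.56 on the log2 scale. That is a low bar, since 60.9% to 65.9% of all probe sets exceeded it on a given array. The counts below are over all 6 arrays together, so that share is not their direct counterpart. Of the 43 genes, 28 were above it on all 6 arrays, 11 on some arrays and 4 on none. By lineage the 28 were 5 of 13 epithelial, 13 of 14 fibroblast and mural, 2 of 5 mesothelial, 6 of 7 platelet and 2 of 4 erythroid genes. All 20 of 20 pan-endothelial genes passed, and Pecam1, which encodes the CD31 used in the sort, lay between 13.50 and 13.70. Signal above the reference does not by itself show RNA: of 6 measured Y-linked genes in these female mice, 5 were below it on every array, while the Sry probe set was above it on all 6, between 8.86 and 9.26. Signals of different probe sets are not levels that can be ranked against each other, so each gene is compared below with itself across arrays. Sums over a lineage are likewise compared only across arrays.

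**Figure D1:**
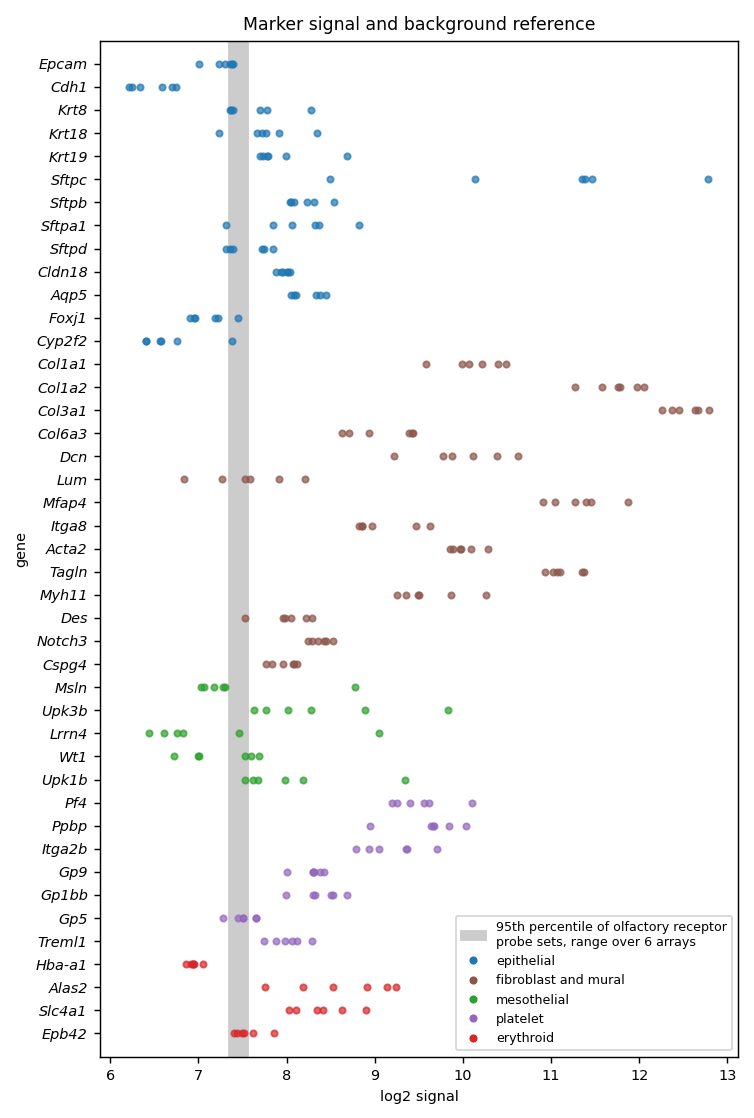
The log2 signal (x axis) of each of the 43 measured genes (y axis), with 1 point per array and colour by lineage. The grey band spans the 95th percentile of the olfactory receptor probe sets over the 6 arrays, and Epcam, Cdh1, Foxj1 and Hba-a1 have no array above their own array's reference.

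None of the 43 genes differed between clodronate-liposome and PBS-liposome ECs at an adjusted p under 0.05 in limma, where 0.306% of all probe sets passed, 0.238% lower and 0.0688% higher. At an unadjusted p under 0.05, 2 of 43 passed, Itga2b and Slc4a1, both lower after clodronate, against 10.8% of all probe sets in either direction, 5.27% lower and 5.53% higher. The groups did not overlap for 5 of 43, Acta2, Ppbp, Itga2b, Slc4a1 and Epb42, against 16.0% of all probe sets. The first 4 were lower after clodronate, against 8.04% of probe sets, and Epb42 was higher, against 7.97%. The clodronate-liposome mean was lower for 23 genes and higher for 20, and the median difference was -0.0152 on the log2 scale, beside -0.00306 over all genes. By lineage the median difference was 0.06 for epithelial, -0.10 for fibroblast and mural, 0.54 for mesothelial, -0.12 for platelet and -0.26 for erythroid genes. In RNA of a whole sorted pool, fewer cells of a type and less RNA per cell cannot be told apart.

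Many of these genes varied widely between single arrays, and some did not. The median SD over the 6 arrays was 0.33 for the 43 genes and 0.15 over all genes. Sftpc had a larger SD than 99.99% of genes, Lrrn4 than 99.9%, Upk3b than 99.81%, Upk1b than 99.46%, Msln than 99.43% and Alas2 than 99.02%. At the other end Cldn18 had a larger SD than 4.25% of genes, Hba-a1 than 5.34% and Notch3 than 24.97%. Summed on the unlogged scale, the highest array exceeded the lowest 3.71-fold for the epithelial genes, but Sftpc alone made up 13.7% to 72.2% of that sum, and the other 12 epithelial genes spanned 1.26-fold. The mesothelial sum spanned 3.69-fold, and 3.48-fold without its brightest gene, Upk3b. The spans were 1.54-fold for the erythroid, 1.53-fold for the platelet and 1.40-fold for the fibroblast and mural genes. The 20 pan-endothelial genes gave 1.14-fold. Their median percentile by mean signal among all probe sets was 99.27, and whether signal that bright narrows a span was not tested. Of them Nos3, between 9.97 and 10.72, spanned 1.69-fold. The highest array was clodronate-liposome replicate 3 for the mesothelial sum and replicate 1 for the fibroblast and mural sum, in each case also without the brightest gene. For the epithelial sum it was replicate 2 with Sftpc and replicate 3 without it. Leaving out the brightest gene was chosen after seeing the data. Bright probe sets weigh most in these sums, and a share of a sum is not a share of RNA. No background was subtracted, so probe sets near the reference add to each sum and narrow its span. Of the mesothelial and erythroid genes, 2 of 5 and 2 of 4 were above the reference on all 6 arrays.

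**Figure D2:**
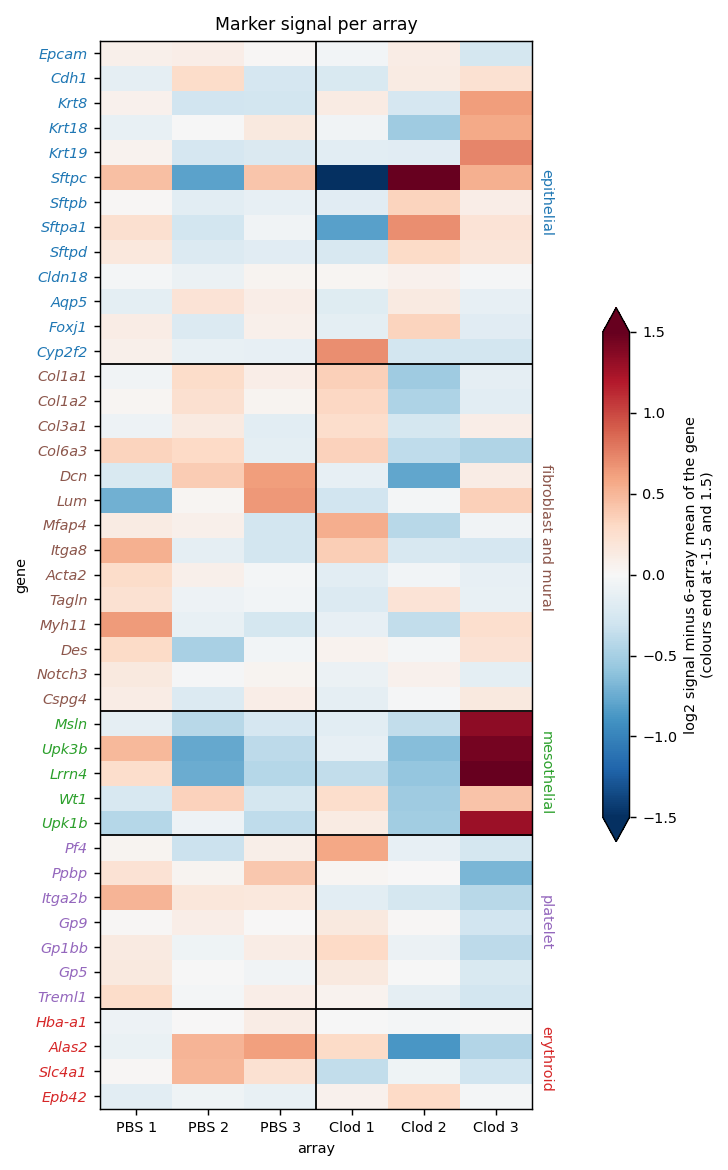
Deviation of each gene (y axis) on each array (x axis) from its own mean over the 6 arrays, in log2 units by colour. The 5 mesothelial genes are highest on clodronate-liposome replicate 3, and of the 6 alveolar genes 5 are highest on replicate 2 and 5 lowest on replicate 1 of that group.

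Epcam and Cdh1, the genes of the epithelial cell surface, were at background, as was Foxj1. Epcam encodes the EpCAM protein against which the cells were sorted, and read 7.36, 7.38 and 7.30 on PBS-liposome replicates 1 to 3 and 7.24, 7.39 and 7.01 on the clodronate-liposome arrays. It was below the reference on every array, the groups overlapped, and the difference was -0.13 (SE 0.12, limma adjusted p = 0.764). Cdh1, the epithelial cadherin, stayed between 6.22 and 6.74, also below the reference throughout. The airway genes Foxj1, a regulator of motile cilia, and Cyp2f2, a club cell cytochrome, did not exceed 7.45 on any array.

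Keratins of simple epithelia peaked together on a single array. Krt19 was above the reference on all 6 arrays, Krt18 on 5 and Krt8 on 3. Krt19 read 8.00, 7.70 and 7.73 in the PBS-liposome group and 7.79, 7.78 and 8.68 in the clodronate-liposome group, a difference of 0.27 (SE 0.24, limma adjusted p = 0.762). Krt8 and Krt18, which pair into the same filaments, peaked on the same array at 8.27 and 8.34, where Epcam had its lowest value. The mesothelial genes were also highest on that array, and their cells' part in the keratin values was not tested. Krt8 differed by 0.33 (SE 0.22, limma adjusted p = 0.656) and Krt18 by -0.02. A dimmer Krt8 probe set read 7.36, 7.46 and 7.44 against 7.73, 7.61 and 7.99, with no overlap. Its difference was 0.36 (limma unadjusted p = 0.0168, adjusted p = 0.314). Another Krt8 probe set gave 0.16 with overlap.

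The genes of the alveolar epithelium were led by Sftpc, which encodes surfactant protein C and is made by type II cells. It read 11.38, 10.14 and 11.35 on the PBS-liposome arrays and 8.49, 12.78 and 11.47 on the clodronate-liposome arrays. The lowest and the highest of the 6 values were thus both in the clodronate-liposome group and differed 19.6-fold, while the means of the groups were 10.96 ± 0.71 and 10.91 ± 2.2 (SD, n = 3 each). The difference was -0.05 with a 95% interval of -2.25 to 2.16 and a limma adjusted p of 0.995, so changes of more than 4-fold in either direction lie within it. A further Sftpc probe set kept that order among the clodronate-liposome arrays, at 8.46, 12.01 and 11.53.

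Sftpa1, surfactant protein A, read 8.37, 7.85 and 8.07 against 7.31, 8.82 and 8.33, and again the extremes were clodronate-liposome replicates 1 and 2. Its difference was 0.06 (SE 0.34, limma adjusted p = 0.977) and its values spanned 2.84-fold. Sftpb and Sftpd, which encode surfactant proteins B and D, spanned 8.04 to 8.54 and 7.32 to 7.85 with both extremes on the same arrays as Sftpa1. Cldn18, a tight junction protein of the alveolus, lay between 7.88 and 8.04, a narrow range. Aqp5, a water channel of type I cells, lay between 8.05 and 8.44 and was highest on PBS-liposome replicate 2, the only one of the 6 genes not highest on clodronate-liposome replicate 2. The summed alveolar signal spanned 5.94-fold with Sftpc and 1.5-fold over the other 5 genes, highest on clodronate-liposome replicate 2 and lowest on replicate 1 in both cases. With clodronate-liposome replicate 1 left out, the difference was 1.17 for Sftpc and 0.48 for Sftpa1, and with replicate 2 left out it was -0.98 and -0.27.

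The promoters of Sftpa1 and Sftpb are shown because the RNA of these genes went with Sftpc across the arrays, and because surfactant genes are known targets of NKX2-1, a homeodomain factor of lung epithelium. They are the 250 bases before the start of each gene, written 5′ to 3′ along the gene, from a table of RefSeq promoters on GRCm38.p6 that matched 29 of the 44 genes. Sftpa1 is at chr14:41131538-41131787 on the plus strand and Sftpb at chr6:72304360-72304609 on the plus strand. Capitals mark words searched on both strands: CTCAAG and CAAGTG for NKX2-1, AGGAAG for Ets factors, the word AGATAA or the word TGATAA or the word AGATAG or the word TGATAG for GATA factors, and TATAAA for a TATA box.
Sftpa1: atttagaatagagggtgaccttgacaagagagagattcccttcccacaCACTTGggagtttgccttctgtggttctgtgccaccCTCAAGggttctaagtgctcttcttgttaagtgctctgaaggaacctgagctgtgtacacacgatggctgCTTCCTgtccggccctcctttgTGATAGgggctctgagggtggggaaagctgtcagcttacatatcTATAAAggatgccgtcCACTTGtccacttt
Sftpb: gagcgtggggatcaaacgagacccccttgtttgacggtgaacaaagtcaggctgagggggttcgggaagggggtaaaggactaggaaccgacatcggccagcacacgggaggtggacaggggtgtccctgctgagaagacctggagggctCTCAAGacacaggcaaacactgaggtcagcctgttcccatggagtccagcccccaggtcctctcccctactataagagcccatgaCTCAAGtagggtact
Sftpa1 held 3 NKX2-1 words and Sftpb 2, where 22.6% of the 32851 mouse promoters in the table held at least 1. Sftpa1 also held a TATAAA that began 30 bases before the start, found in 12.4% of promoters. It further held a GATA word at 74 bases and an Ets word, on the minus strand of the gene, at 96 bases. A match of letters is a description and no evidence that a factor binds. Over the 29 genes, 11 held an NKX2-1 word and 5 a TATAAA. Those with an NKX2-1 word included Pf4, Gp5 and other genes outside the epithelial list.

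Of 28 further epithelial genes measured, none passed the threshold, and 4 had an unadjusted p under 0.05, all lower after clodronate, where 5.27% of all probe sets were. Muc1, a mucin of the apical surface, differed by -0.47 (limma adjusted p = 0.132) and Nkx2-1 itself by -0.45 (0.379). Scgb1a1, the secretoglobin of club cells, was chosen after its values were seen and read 10.37, 10.06 and 8.76 against 11.28, 7.53 and 7.89, so it was high on clodronate-liposome replicate 1 where Sftpc was low. Its range was 13.4-fold and its difference -0.83 (SE 0.92, limma adjusted p = 0.826).

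**Figure D3:**
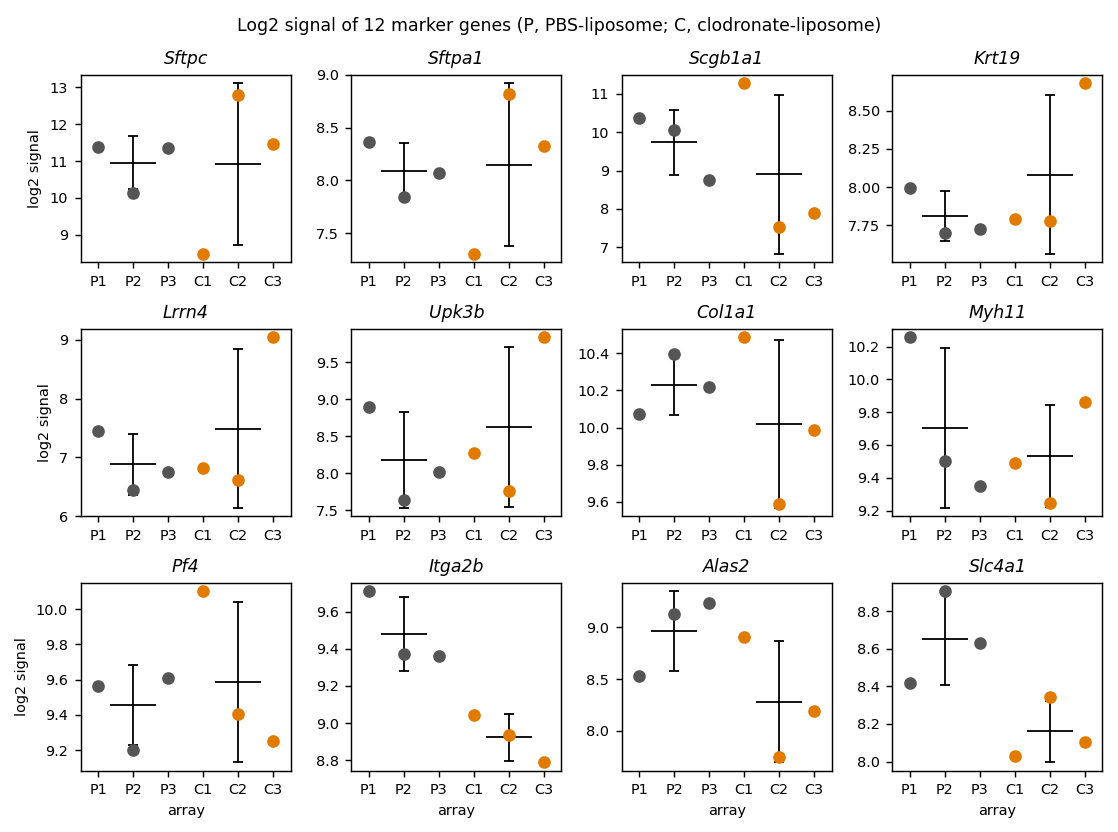
Log2 signal (y axis) of 12 genes, with 1 point per array (x axis: P, PBS-liposome, and C, clodronate-liposome, each with its replicate number). Horizontal lines are group means and bars their SD (n = 3), and each panel has its own range. Sftpc spans 8.49 to 12.78 within the clodronate-liposome group, Lrrn4 has 1 value of 9.05 with the others at 7.46 or less, and Itga2b shows groups that do not touch.

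Of the 8 genes of the fibroblast matrix, 7 were above the reference on all 6 arrays, and Lum was above it on 4. Col1a1 and Col1a2, the chains of type I collagen, lay between 9.59 and 10.49 and between 11.28 and 12.05, and Col3a1, type III collagen, between 12.26 and 12.79. For these 3 genes and for Mfap4, a microfibril protein, the highest and the lowest of the 6 values were clodronate-liposome replicates 1 and 2 in that order. Over the 8 matrix genes, 5 were highest on replicate 1 and 5 lowest on replicate 2 of that group.

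Dcn, the small proteoglycan decorin, read 9.77, 10.38 and 10.62 on the PBS-liposome arrays and 9.88, 9.21 and 10.11 on the clodronate-liposome arrays. The groups overlapped, and the difference of -0.52 (SE 0.28, limma adjusted p = 0.561) was the largest in size among the fibroblast and mural genes. Lum, the related lumican, read 6.84, 7.59 and 8.21 against 7.27, 7.52 and 7.92, with a difference of 0.02 (SE 0.32). Col6a3, a chain of type VI collagen, read 9.42, 9.39 and 8.94 against 9.43, 8.70 and 8.63, a difference of -0.33 (SE 0.23, limma adjusted p = 0.689). Its partner chains were not led by the groups either: Col6a1 spanned 9.48 to 10.89 and Col6a2 8.20 to 9.52, each highest on clodronate-liposome replicate 1 and lowest on replicate 2. Itga8, an integrin chain of alveolar fibroblasts, lay between 8.83 and 9.63.

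Genes of smooth muscle and pericytes were highest on PBS-liposome replicate 1 in 5 of 6 cases. Myh11, the smooth muscle myosin heavy chain, read 10.26, 9.50 and 9.35 against 9.49, 9.25 and 9.86, a difference of -0.17 (SE 0.25, limma adjusted p = 0.877). Acta2, smooth muscle actin, read 10.28, 10.09 and 9.98 against 9.85, 9.96 and 9.89, and every clodronate-liposome array was below every PBS-liposome array. That difference was small, -0.21 (SE 0.11, limma adjusted p = 0.545), and 2 dimmer Acta2 probe sets gave -0.16 and -0.04. Tagln, an actin-binding protein of the same cells, lay between 10.94 and 11.37 with a difference of -0.08. Des, the muscle intermediate filament, Notch3, a receptor of mural cells, and Cspg4, the pericyte proteoglycan NG2, differed by 0.16, -0.11 and -0.00386.

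The sort removed CD140a+ and CD140b+ cells, and the genes of these proteins still gave signal above the reference. Pdgfra (CD140a) lay between 9.15 and 10.09 and differed by -0.19 (limma adjusted p = 0.863). Pdgfrb (CD140b) read 8.62, 8.62 and 8.55 against 8.30, 8.44 and 8.23, a difference of -0.27 (limma adjusted p = 0.369) with no overlap. Of 32 further fibroblast and mural genes, none passed the threshold, and at an unadjusted p under 0.05 there were 3 lower and 3 higher, where 5.27% and 5.53% of all probe sets were. Synpo2, an actin-bundling protein of muscle, was nearest to it at 7.16, 6.95 and 7.17 against 7.83, 7.76 and 7.61, below the reference on the PBS-liposome arrays and above it on the others, a difference of 0.64 (limma adjusted p = 0.0776). Col5a1, type V collagen, was also higher after clodronate by 0.35 (0.253).

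All 5 mesothelial genes were highest on clodronate-liposome replicate 3. Lrrn4, a leucine-rich repeat membrane protein of mesothelium, read 7.46, 6.44 and 6.76 on the PBS-liposome arrays and 6.82, 6.61 and 9.05 on the clodronate-liposome arrays, so that this 1 array was 3.01-fold above the next. Upk3b, a uroplakin of mesothelium, read 8.89, 7.63 and 8.01 against 8.28, 7.76 and 9.83. Upk1b read 7.62, 7.98 and 7.68 against 8.18, 7.53 and 9.34, and Msln, mesothelin, read 7.30, 7.02 and 7.18 against 7.28, 7.07 and 8.77. Wt1, a transcription factor of mesothelium, was the flattest, with 7.68 on that array and 6.72 to 7.60 on the others.

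Their differences were positive and none passed the threshold: 0.61 for Lrrn4 (SE 0.60, limma adjusted p = 0.799), 0.59 for Upk1b (SE 0.39, 0.668), 0.54 for Msln (SE 0.40, 0.702), 0.45 for Upk3b (SE 0.52, 0.841) and 0.11 for Wt1 (SE 0.27, 0.937). The lineage's median difference of 0.54 rested on that array and was -0.08 without it. The summed signal was 845 to 1135 on the PBS-liposome arrays, 740 to 1054 on clodronate-liposome replicates 1 and 2, and 2733 on replicate 3. PBS-liposome replicate 1 held the second highest values of Upk3b and Lrrn4.

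Most further mesothelial genes also peaked on clodronate-liposome replicate 3. Of 13 measured, 10 were highest on clodronate-liposome replicate 3, among them Aldh1a2, a retinoic acid enzyme, at 9.15 with 7.34 to 8.22 elsewhere, Efemp1, a fibulin, at 9.66 with 8.32 to 8.85 elsewhere, and Bnc1, a zinc finger factor, at 7.38 with 5.88 to 6.54 elsewhere, the latter below the reference. These 3 were named after their values were seen. Of the 13, 12 were higher after clodronate and 1 lower, with a median difference of 0.25. The groups did not overlap for 3 of the 13, 2 higher and 1 lower, against 7.97% and 8.04% of all probe sets. The smallest p belonged to Nkain4, which was higher by 0.44 (limma adjusted p = 0.211), and to Muc16, a mucin, with a difference of 0.25 (0.416), the only ones of the 13 with an unadjusted p under 0.05, where 5.53% of all probe sets were higher. Nkain4 read 8.18, 7.95 and 8.25 against 8.51, 8.48 and 8.70, so every clodronate-liposome array was above every PBS-liposome array. Muc16 lay between 6.54 and 6.90, below the reference on all 6 arrays.

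Platelet genes were lowest on clodronate-liposome replicate 3 in 6 of 7 cases. Itga2b encodes the alpha chain of the fibrinogen receptor and read 9.71, 9.37 and 9.36 on the PBS-liposome arrays and 9.04, 8.93 and 8.79 on the clodronate-liposome arrays. The groups did not overlap and the mean was 1.47-fold lower after clodronate, a difference of -0.56 (SE 0.13, 95% interval -0.86 to -0.26, unadjusted p = 0.00269, limma adjusted p = 0.163). This was the smallest adjusted p among the 43 genes, and the difference stayed between -0.62 and -0.44 with each array left out in turn. Of 21 further platelet genes none passed the threshold, with 3 lower and 2 higher at an unadjusted p under 0.05, beside 5.27% and 5.53% of all probe sets. Among them Itgb3, the beta chain that pairs with Itga2b, lay between 9.90 and 10.16 on the PBS-liposome arrays and between 9.32 and 9.59 on the others, a difference of -0.60 (limma adjusted p = 0.111). Alox12, the platelet lipoxygenase, differed by -0.71 (0.133). Endothelial cells and leukocytes also make Itgb3.

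Pf4 and Ppbp, the CXC chemokines stored in platelet granules, are neighbours with no gene between them, and their orders across arrays differed. Pf4 read 9.56, 9.20 and 9.61 against 10.10, 9.40 and 9.25, with its highest value on clodronate-liposome replicate 1 and a difference of 0.13 (SE 0.22, limma adjusted p = 0.898). Ppbp read 9.84, 9.67 and 10.03 against 9.66, 9.64 and 8.94, so the groups did not overlap, although PBS-liposome replicate 2 and clodronate-liposome replicate 1 nearly touched. Its difference was -0.44 (SE 0.20, limma adjusted p = 0.497), and -0.20 without clodronate-liposome replicate 3.

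The promoters of these neighbours and of Itga2b are shown as the platelet genes the account above turns on, in the same form as the surfactant promoters. Pf4 is at chr5:90772185-90772434 and Ppbp at chr5:90768268-90768517, both on the plus strand, and Itga2b is at chr11:102469884-102470133 on the minus strand. Capitals mark the same words.
Pf4: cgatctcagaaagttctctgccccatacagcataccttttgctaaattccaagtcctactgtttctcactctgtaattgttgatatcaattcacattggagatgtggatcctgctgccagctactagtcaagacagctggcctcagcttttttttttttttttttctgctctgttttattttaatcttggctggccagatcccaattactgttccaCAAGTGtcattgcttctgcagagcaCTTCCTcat
Ppbp: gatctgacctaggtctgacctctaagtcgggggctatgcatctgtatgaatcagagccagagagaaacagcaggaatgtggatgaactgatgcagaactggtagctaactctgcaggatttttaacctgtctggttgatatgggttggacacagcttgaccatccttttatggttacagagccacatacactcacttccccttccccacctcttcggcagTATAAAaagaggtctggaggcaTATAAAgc
Itga2b: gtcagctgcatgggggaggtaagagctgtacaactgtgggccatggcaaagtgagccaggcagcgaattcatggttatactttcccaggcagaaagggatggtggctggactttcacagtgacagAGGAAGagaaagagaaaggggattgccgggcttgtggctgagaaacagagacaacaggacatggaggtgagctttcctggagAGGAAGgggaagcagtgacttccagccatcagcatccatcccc
Ets words stood 9 bases before the start of Pf4, read on the minus strand of the gene, and at 43 and 125 bases before that of Itga2b, where 29.5% of promoters held at least 1. Pf4 also held an NKX2-1 word at 34 bases. Ppbp held TATAAA at 30 and at 8 bases before the start and none of the other words. No GATA word was found in these 3 windows, which says only that these letters are not there. Over the 29 genes with an entry, 12 held an Ets word and 10 a GATA word, and 26.5% of promoters held the latter.

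The glycoproteins of the platelet receptor for von Willebrand factor varied to unlike extents. Gp1bb had a larger SD than 80.76% of genes, Gp9 than 47.73% and Gp5 than 44.98%. Gp9 lay between 8.01 and 8.43, Gp1bb between 8.00 and 8.68 and Gp5 between 7.28 and 7.66, each lowest on clodronate-liposome replicate 3, with differences of -0.08, -0.12 and -0.06. Treml1, a receptor of platelet granules, lay between 7.74 and 8.29 and differed by -0.23 (limma adjusted p = 0.569). With clodronate-liposome replicate 1 left out the median over the 7 genes was -0.30, and with replicate 3 left out it was 0.04, so its sign turned on single arrays. Beside these values stands Ptprc (CD45), the leukocyte antigen of the sort, which read 8.48, 8.71 and 8.57 against 7.66, 8.22 and 8.13, a difference of -0.58 (limma adjusted p = 0.217) with no overlap. Itgam (CD11b), a myeloid antigen of the sort, was below the reference on all arrays, with a difference of -0.08. The part of leukocyte RNA in the platelet values was not tested.

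**Figure D4:**
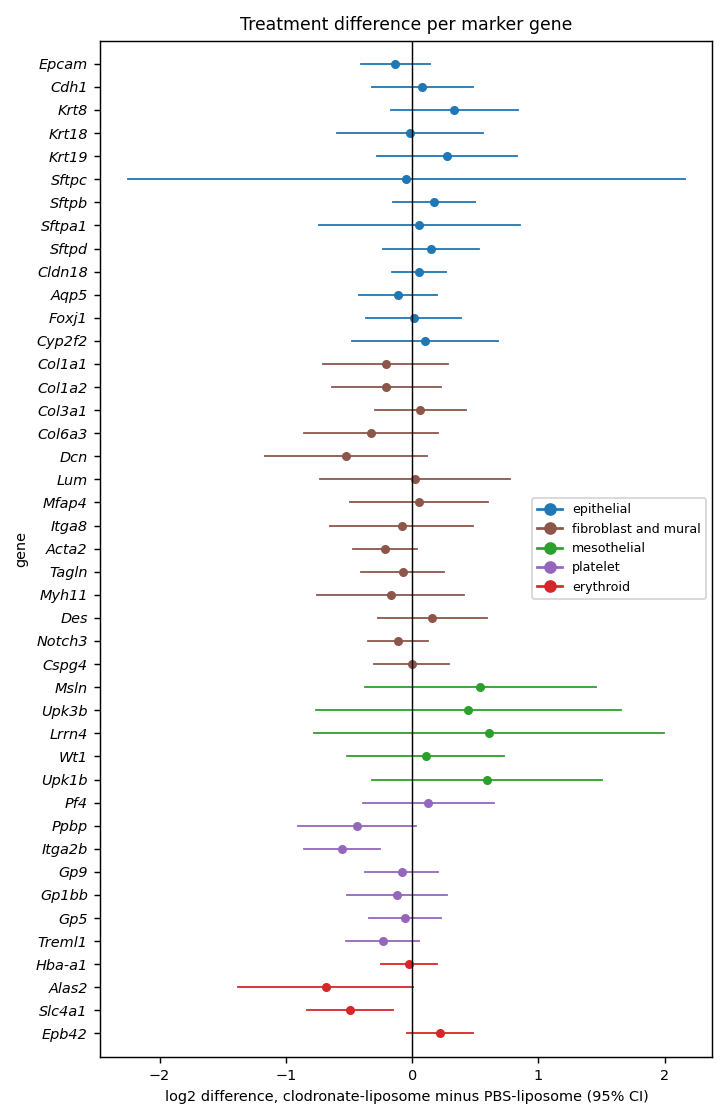
Difference of the clodronate-liposome mean from the PBS-liposome mean (x axis, log2 units) for each gene (y axis), as points with limma's 95% intervals (n = 3 arrays per group). The intervals of Itga2b and Slc4a1 lie below 0 and that of Sftpc runs from -2.25 to 2.16.

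Of the 4 erythroid genes, 3 were lower after clodronate and 1 higher, none past the threshold. The 2 above the reference on all 6 arrays, Alas2 and Slc4a1, were both lower. Alas2, the first enzyme of heme synthesis in red cell precursors, read 8.53, 9.14 and 9.24 on the PBS-liposome arrays and 8.91, 7.75 and 8.19 on the clodronate-liposome arrays. The groups overlapped through clodronate-liposome replicate 1, and the difference was -0.68 (SE 0.30, 95% interval -1.38 to 0.01, limma adjusted p = 0.471), the largest in size of the 43 genes, with a range of -0.997 to -0.418 as each array was left out. Slc4a1, the band 3 anion exchanger of the red cell membrane, read 8.42, 8.90 and 8.63 against 8.03, 8.34 and 8.11, a difference of -0.49 (SE 0.15, unadjusted p = 0.0107, limma adjusted p = 0.265) with no overlap. The other 2 Slc4a1 probe sets gave 0.14 and -0.02, so the gene's probe sets disagreed. Epb42, protein 4.2 of the membrane skeleton, read 7.40, 7.49 and 7.44 against 7.62, 7.85 and 7.52, higher by 0.22 (SE 0.11, limma adjusted p = 0.545) with no overlap, near the reference.

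The promoter of Alas2 is shown because its gene had the largest difference of the 43. It lies at chrX:150547167-150547416 on the plus strand, and capitals mark the words given above.
Alas2: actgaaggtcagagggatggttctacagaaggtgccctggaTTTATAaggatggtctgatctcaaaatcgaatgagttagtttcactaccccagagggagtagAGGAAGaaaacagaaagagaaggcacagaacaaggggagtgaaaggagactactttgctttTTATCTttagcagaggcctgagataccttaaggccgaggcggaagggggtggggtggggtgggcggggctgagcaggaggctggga
It held 1 GATA word, read on the minus strand of the gene, that began 86 bases before the start, 1 Ets word at 147 bases, and a TATAAA on the minus strand at 209 bases.

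Hemoglobin alpha was read by several probe sets that cannot all be named. The probe set annotated to Hba-a1 alone lay between 6.86 and 7.06, below the reference on all arrays, with a difference of -0.02. Another 3 probe sets are annotated to Hba-a1 and Hba-a2 together, near-identical genes. They were bright, and the first read 11.14, 11.43 and 11.71 against 11.41, 9.06 and 9.97, a difference of -1.28 (SE 0.51, limma adjusted p = 0.415). The others differed by -0.996 and -0.965 (limma adjusted p = 0.458 and 0.490). The unadjusted p of the 3 were 0.036, 0.049 and 0.061. In each of them clodronate-liposome replicates 2 and 3 were the lowest 2 values, and replicate 1 lay within the PBS-liposome range. The probe set annotated to Hba-a2 alone did not follow, at 12.39 to 12.91. Hbb-b2, a beta globin, read 12.08, 12.74 and 12.50 against 11.93, 11.03 and 10.79, a difference of -1.19 (SE 0.29, limma adjusted p = 0.181) with no overlap. Red cell lysis preceded the sort, and how complete it was in each sample was not tested. Of 18 further erythroid genes none passed the threshold, and the 2 with an unadjusted p under 0.05, where 5.27% of all probe sets were lower, were Hbb-b2 and Rhd, the Rh blood group antigen, with a difference of -0.28 (limma adjusted p = 0.363).

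Array controls did not single out the same arrays for every lineage. The mean of 18 hybridization control probe sets lay between 12.11 and 12.24 on the PBS-liposome arrays and read 11.91, 12.20 and 11.94 on the clodronate-liposome arrays. The 18S probe sets read 12.63, 12.39 and 12.56 against 13.01, 12.33 and 12.998. Clodronate-liposome replicates 1 and 3, where the matrix and mesothelial genes respectively peaked, thus had the highest 18S signal and the lowest hybridization controls. The 3′ minus 5′ signal of Gapdh read 0.39, 0.19 and 0.23 against 0.41, 0.21 and 0.56. That of beta-actin read 0.30, 0.40 and 0.35 against 0.17, 0.40 and 0.18. The array weights of limma read 0.84, 1.14 and 1.23 against 0.76, 0.61 and 1.84. The part of these array differences in the marker values was not tested.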

How the data were processed

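RNA of sorted lung ECs was amplified from a very small input and hybridised to Affymetrix whole-genome mouse 3′ expression arrays, 3 per group. The authors normalized the scans by RMA in Chipster and deposited log2 signal per probe set, which is what was analysed. All 45101 probe sets were read, 64 controls were removed and 45037 tested. The platform annotation gave 1 symbol for 34945 of these, several for 932 and none for 9160. Groups were taken from the labels.

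Clodronate-liposome was compared with PBS-liposome with a two-sided moderated test without covariates (lmFit followed by eBayes, limma 3.58.1 under R 4.3.3, with 4 residual and 3.90 prior degrees of freedom) and Benjamini-Hochberg adjustment over all 45037 probe sets and a threshold of 0.05. Values are log2 signals, differences are clodronate-liposome minus PBS-liposome, and ± is SD. The fit was tested on simulated data. With 3 arrays per group, their number limits the precision. The array table carries no detection calls, slide or scan date.

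The genes and lists were chosen with earlier results of these data known. Values on every array are given for genes past the threshold, with an unadjusted p under 0.05, with groups that do not overlap, with the largest SDs of their lineage (3, or 2 in small lineages), and for Epcam. Of the further lists the 2 smallest p are named. Other genes named with values are said to be such or belong to the sort. Whether the ECs themselves make some genes of the further lists was not tested. Alternatives were a filter on low signal, other normalizations, a replicate block, hybridization controls as a covariate, other variance models, other probe sets per gene, other background references and leaving out each array. RefSeq held the symbols of 43 genes unchanged.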

Additional observations from a re-analysis of the deposited data

How the results depend on the processing

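The count of 0 called marker genes held under all 15 alternatives, with 1 to 10 genes at an unadjusted p under 0.05. Signs were less firm: 17 of 43 genes had the same sign in every alternative. Over all probe sets the count of 138 became 244 with the filter on low signal, 248 with a trended and robust variance model, 234 with array weights and 6 to 73 with each array left out. It became 0 with the hybridization controls as a covariate (smallest adjusted p 0.0608, 4710 probe sets at an unadjusted p under 0.05, limma). Another quantile normalization and median centring kept it within 1.5 times. With the replicate number of the labels as a block it was 0 (smallest adjusted p 0.0507, 5033 unadjusted, limma). Same-numbered arrays correlated at 0.0751, 0.0700 and 0.0361 in their deviations from the group means. Arrays of different numbers correlated between -0.0578 and -0.00648, so each array correlated best with its own number. The labels state no pairing, so the main fit has none, and whether the numbers mark a batch was not tested. The block changed no call among the marker genes.

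With each array left out, the lineage medians ranged from -0.0118 to 0.214 (epithelial, the highest without clodronate-liposome replicate 1), -0.168 to -0.0109 (fibroblast and mural), -0.08 to 0.88 (mesothelial), -0.302 to 0.0392 (platelet, without clodronate-liposome replicates 1 and 3) and -0.34 to -0.20 (erythroid). The erythroid median was -0.59 with the filter, 0.0588 with the probe set of largest SD and -0.0741 with the mean of all probe sets of a gene. The causes were not tested. Genes above the reference on all arrays numbered 22 to 29. Signal near background limits Epcam, Cdh1, Foxj1, Cyp2f2, Hba-a1 and most mesothelial genes.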

Other observations

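Other cell types that a CD31+ lung sort can hold gave these values. Of 5 lymphatic endothelial genes measured, all were above the background reference on all arrays and none passed the threshold. Pdpn is in this list and also among the further epithelial genes. Signal above the reference does not by itself show lymphatic cells. Mmrn1, an extracellular protein of lymphatic endothelium and of platelets, read 10.35, 10.42 and 10.83 on the PBS-liposome arrays and 10.95, 11.13 and 10.94 on the clodronate-liposome arrays. Its difference was 0.47 (SE 0.14, limma adjusted p = 0.267) with no overlap, where 7.97% of all probe sets were higher without overlap. Mmrn1 was the only one of the 5 with an unadjusted p under 0.05, where 5.53% of all probe sets were higher. Prox1, the lymphatic master regulator, differed by -0.05 and Lyve1, a hyaluronan receptor, by 0.03. Of 3 Schwann cell genes measured none had an unadjusted p under 0.05. S100b, a calcium-binding protein, read 7.79, 7.64 and 7.67 against 7.42, 7.61 and 7.33, a difference of -0.25 (SE 0.11, limma adjusted p = 0.476) with no overlap. Mbp, a myelin protein, differed by -0.25 with overlap (limma adjusted p = 0.596) and Sox10, a transcription factor, by 0.00394.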
